A study of Mus musculus with 16 samples.

Results

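The genes described here form the core machinery of DNA replication together with the G1/S switch that starts it. They are 43 named genes, chosen by symbol for these functions and not by how they moved. They were followed in cells enriched for haematopoietic stem cells, a small marrow population whose members renew themselves and feed every blood lineage. Of the 43 genes, 41 had a probe on the array, and 40 passed the detection filter and were tested among 9680 genes in all. Gins1 and Gins2 were not analysed here, and Pola1, the catalytic subunit of DNA polymerase alpha, was detected on no array.

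RNA was measured on 16 Illumina mouse bead arrays, 4 for each of 4 groups. Jak2VF cells had, knocked into the Jak2 gene, the activated kinase form that underlies polycythemia vera, and they carried the CD45.2 allele of the leukocyte surface protein CD45. WT cells carried wild-type Jak2 and the CD45.1 allele. Within each genotype, treatment lasted 4 weeks and was either a daily 10000 units of interferon alpha or vehicle. The groups were thus Jak2VF with interferon, Jak2VF with vehicle, WT with interferon and WT with vehicle, all on the strain background that the labels give as C57B16. The 2 genotypes differed in the CD45 allele as well as in Jak2, so that these cannot be told apart. The series title names the depletion, by interferon, of stem cells that sustain this overproduction of red cells. Whether each array stands for its own animal is not given in the sources used here. The p-values therefore reflect only how far these samples scatter, and that scatter may be technical.

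Replication begins when origins of replication are licensed in G1. Cdc6 and Cdt1 load the ring of Mcm2 to Mcm7 proteins on DNA there, and Cdc45 and the GINS complex later turn this ring into a moving helicase. Cyclin E, the product of Ccne1 and Ccne2, and E2F transcription factors drive the passage into S phase, and many replication genes are known E2F targets that rise together in late G1. Most stem cells of the marrow rest outside the cycle, and interferon alpha is known to bring them into division for a time. No cell cycle phase was measured in the files used here, and transcript levels of replication genes are not counts of cells in S phase.

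Because E2F factors act through promoters, the promoters were read for E2F-type letters. RefSeq promoters of GRCm38.p6, 250 bases before to 50 after each start, were held for 35 of the 43 genes. Any of the motifs TTTGGCGC, TTTCCCGC, TTTGCCGC and TTTCGCGC, on either strand, stood in 12 of the 35 (34.3%), against 4.69% of 7569 tested genes and 2.60% of all 27025 genes with a promoter. The windows below run from 180 to 31 bases before the start. They show Cdc6 and Ccne1, which were called with interferon, and Mcm5 and Mcm6, whose windows hold overlapping matches and which were not called. Capitals mark the E2F-type letters, with overlapping matches run together and matches on the opposite strand shown as they read on the gene's strand.
Cdc6 (chr11:98907971-98908120, forward strand): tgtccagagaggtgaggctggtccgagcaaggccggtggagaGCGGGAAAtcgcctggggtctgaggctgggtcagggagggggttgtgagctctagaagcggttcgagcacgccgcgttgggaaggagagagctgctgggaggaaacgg
Mcm5 (chr8:75109329-75109478, forward strand): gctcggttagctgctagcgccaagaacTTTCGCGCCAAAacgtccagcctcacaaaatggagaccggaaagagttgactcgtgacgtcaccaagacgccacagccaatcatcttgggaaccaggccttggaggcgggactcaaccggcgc
Mcm6 (chr1:128359736-128359885, reverse strand): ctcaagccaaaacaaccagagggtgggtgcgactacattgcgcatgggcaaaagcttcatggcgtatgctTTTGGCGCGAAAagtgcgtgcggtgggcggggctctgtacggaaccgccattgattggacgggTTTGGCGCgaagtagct
Ccne1 (chr7:38107521-38107670, reverse strand): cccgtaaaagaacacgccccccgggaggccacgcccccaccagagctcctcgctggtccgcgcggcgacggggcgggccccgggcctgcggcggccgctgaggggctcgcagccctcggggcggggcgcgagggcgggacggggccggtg
The Cdc6 window holds TTTCCCGC read on the opposite strand, Mcm5 and Mcm6 hold TTTGGCGC and TTTCGCGC matches that overlap, and the Ccne1 window holds none of these letters. A match is a description of letters and not a shown binding site, and no match says only that these letters are not in this window. The box CCAAT, read by the factor NF-Y, stood in 21 of the 35 promoters (60.0%, against 43.9% of tested genes). The letters TTTGAA, part of the cell cycle homology region of G2/M genes, stood in 5 (14.3%, against 14.9%).

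Brightness differed between arrays before normalization. The mean intensity per array was 884 ± 218 with interferon and 498 ± 100 with vehicle in Jak2VF cells, and 684 ± 305 with interferon and 305 ± 122 with vehicle in WT cells (SD, n = 4 each). The share of probes detected ran between 31.9% and 50.8%. Values below are log2 intensities after background correction and quantile normalization, on which a difference of 1 stands for 2 times the normalized intensity. Of the 40 genes, 37 were detected on all 16 arrays. The exceptions were Mcm3 on 15, Ccne1 on 13 and Ccne2 on 12. Ccne1 was detected on 4 of 4 arrays with interferon and 4 of 4 with vehicle in Jak2VF cells, and on 3 with interferon and 2 with vehicle in WT cells. Ccne2 followed with 4 and 4 in Jak2VF cells, and 3 and 1 in WT cells. Of the stem cell markers, 13 of 15 were tested, while Kit, the receptor used to sort such cells, and Fgd5 were not among the tested genes.

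With interferon in Jak2VF cells, 4 replication genes with different jobs were called. Ccne1 (cyclin E1), Cdc6 and Rrm2, the inducible subunit of ribonucleotide reductase, rose. Rfc2, a subunit of the clamp loader, fell. That made 3 genes higher and 1 lower of 40 (10%), against 16% of all 9680 genes called in this comparison (6.51% higher and 9.46% lower), so the share of called genes was no larger than the background. At an unadjusted p under 0.05 there were 13 of 40 (32.5%), against 29.9% of all genes. The median log2 change of the 40 genes was 0.03, against -0.00 over all genes.

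Ccne1 had the largest change. It read 8.05, 7.85, 7.55 and 8.39 on the Jak2VF interferon arrays, against 6.26, 6.46, 6.17 and 6.58 on the Jak2VF vehicle arrays. Every interferon array lay above every vehicle array, a log2 change of 1.59 ± 0.40 (SE, limma adjusted p = 0.016). This probe was dim in every group, and the authors' own processed values, which keep the background, gave a smaller change of 0.93 (adjusted p = 0.00193). Ccne2, the second cyclin E gene, read 6.27, 6.31, 7.40 and 7.38 with interferon, against 6.01, 5.67, 5.75 and 5.64 with vehicle. These groups did not overlap either, but the log2 change of 1.07 ± 0.44 missed the threshold (adjusted p = 0.117), with a 95% interval of 0.13 to 2.02.

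Cdc6 and Cdt1 act side by side in licensing. Cdc6, the ATPase that recruits the helicase to origins, read 9.87, 10.27, 10.50 and 10.46 with interferon, against 9.49, 9.72, 9.51 and 9.56 with vehicle. The lowest interferon array lay just above the highest vehicle array, and the log2 change was 0.71 ± 0.20 (adjusted p = 0.0253). Cdt1 read 11.57, 11.47, 11.61 and 11.89 with interferon, against 11.34, 11.23, 11.13 and 11.23 with vehicle. Its groups did not overlap, and its log2 change of 0.40 ± 0.13 lay just outside the threshold (adjusted p = 0.0506).

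Rrm2 makes deoxynucleotides during S phase. It read 8.99, 8.68, 9.11 and 9.0 with interferon, against 8.44, 8.47, 8.58 and 8.46 with vehicle, and the groups did not overlap. The log2 change of 0.46 ± 0.15 passed narrowly (adjusted p = 0.0487). Its partner Rrm1, the large subunit, had a log2 change of 0.03 ± 0.12. Thymidylate synthase (Tyms) was at -0.09 ± 0.14, and thymidine kinase (Tk1) at -0.30 ± 0.12 (adjusted p = 0.102).

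Rfc2 moved the other way. It read 12.17, 12.16, 12.11 and 11.97 with interferon, against 12.52, 12.61, 12.82 and 12.74 with vehicle. All interferon arrays lay below all vehicle arrays, and the log2 change was -0.57 ± 0.12 (adjusted p = 0.00408). The other clamp loader genes had log2 changes of -0.20 for Rfc1, -0.29 for Rfc3, -0.05 for Rfc4 and -0.20 for Rfc5, none of them called. Pcna, the sliding clamp that they load and a common marker of replicating cells, was at 0.05 ± 0.18, with a 95% interval of -0.34 to 0.43. Its arrays read 10.92, 11.18, 10.71 and 11.03 with interferon, against 10.89, 10.66, 11.10 and 11.00 with vehicle, and overlapped throughout.

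The helicase itself had no called gene. The log2 changes of its 10 tested genes lay between -0.14 (Mcm7) and 0.39 (Mcm3), with a median of 0.10. Mcm2 read 10.88, 10.72, 10.83 and 10.97 with interferon, against 10.66, 10.70, 10.74 and 10.83 with vehicle, and the groups overlapped. Its log2 change was 0.12 ± 0.09, with an interval of -0.08 to 0.32. Mcm10, which joins the helicase as it starts, was at 0.34 ± 0.12 (adjusted p = 0.0763), with groups that did not overlap. The 6 tested primase and polymerase genes lay between -0.03 (Pole) and 0.28 (Pola2), and none was called.

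Single-strand binding and the last steps of synthesis showed no call. Of the replication protein A genes, which coat unwound DNA, Rpa1 was at 0.14, Rpa2 at 0.01 and Rpa3 at -0.37 (adjusted p = 0.0756). Fen1, which trims Okazaki fragments, was at 0.26, and Lig1, which joins them, at 0.04. The probes of Lig1 disagreed in sign, as the other passing ones were at -0.65, -0.76 and 0.30. None of these was called (limma adjusted p over all probes = 0.212, 0.0504 and 0.747). Ung, which removes uracil from new DNA, was at -0.29. The chromatin assembly genes Chaf1a and Chaf1b were at -0.11 and -0.10, and Uhrf1, which keeps methylation on the new strand, was at 0.04. E2f1 read 9.88, 9.93, 9.82 and 9.87 with interferon, against 10.18, 10.10, 10.47 and 10.07 with vehicle. Those groups did not overlap, with interferon arrays below, and the log2 change of -0.33 ± 0.13 was not called (adjusted p = 0.101).

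Across the 40 genes, 11 had groups that did not overlap (6 higher, 5 lower), which is 27.5%, against 29.9% of all genes. The 95% interval lay within a log2 change of 1 either way for 36 of 40 genes (90.0%), against 66.3% of all genes, and reached 1 for Cdc6, Mcm3, Ccne1 and Ccne2. The median size of change, without sign, was 0.16 for the 40 genes and 0.29 over all genes. Their median standard error was also smaller, 0.14 against 0.21 over all genes, which narrows the intervals at any size of change.

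**Figure D1:**
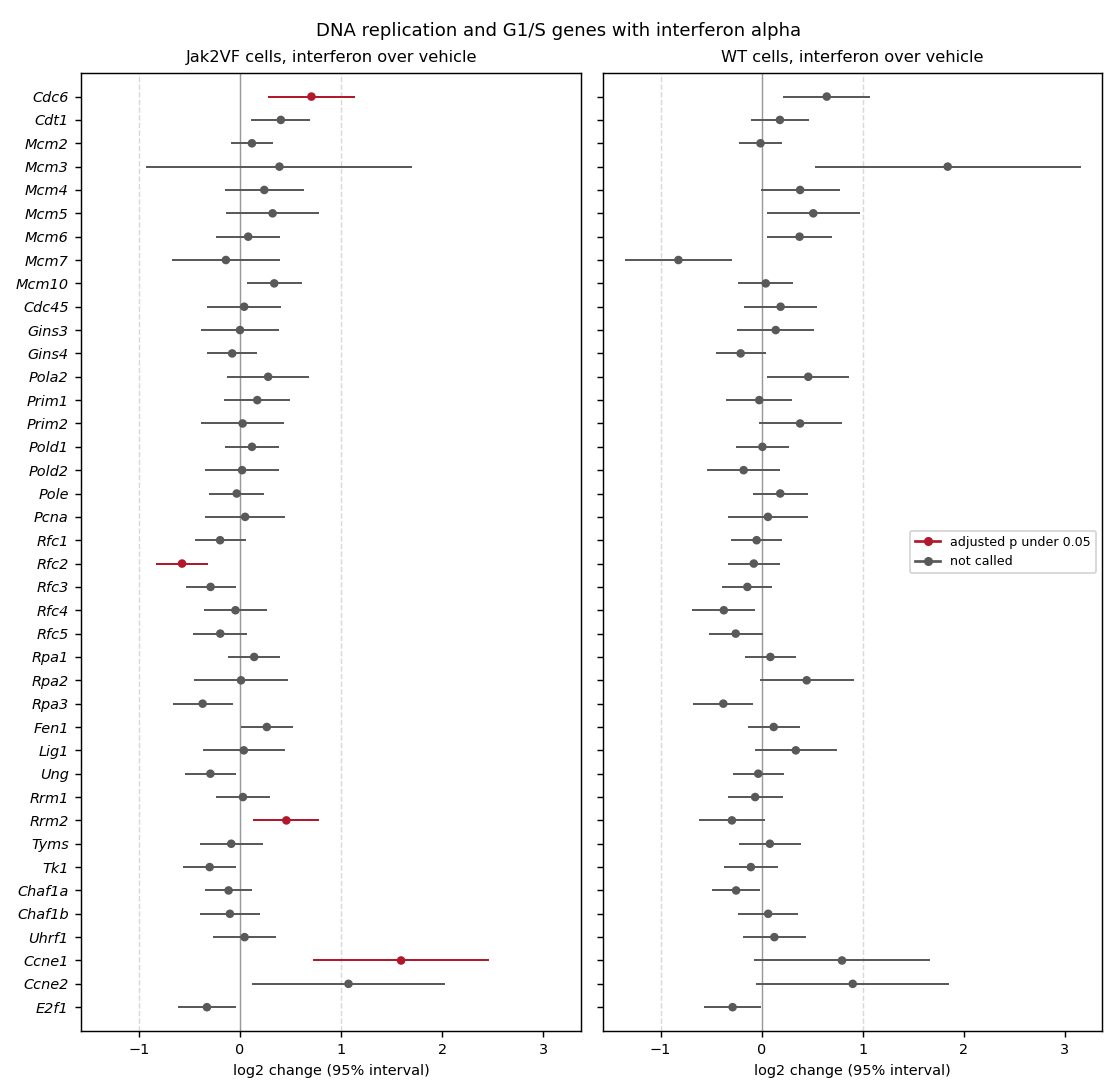
Log2 change with interferon over vehicle (horizontal axis) for each of the 40 tested genes, in Jak2VF cells on the left and WT cells on the right; points are limma estimates, lines their 95% intervals, and red marks an adjusted p under 0.05. Ccne1, Cdc6 and Rrm2 stand to the right and Rfc2 to the left in Jak2VF cells, and no gene is red in WT cells.

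Markers of cell types, stem cells among them, moved in the same comparison. Of all genes, 6.51% were called higher and 9.46% lower in it. Of 13 tested erythroid markers 9 rose and none fell, with summed normalized intensities of 21687 to 29030 on the Jak2VF interferon arrays, against 9256 to 13169 on the Jak2VF vehicle arrays. Of 13 tested stem cell markers 5 fell and none rose, with sums of 4257 to 7213 with interferon, against 10658 to 12055 with vehicle. Markers that fell also numbered 6 of 10 for megakaryocytes, 4 of 13 for granulocytes and monocytes, 6 of 10 for mast cells, basophils and eosinophils, 3 of 6 for B and plasma cells, 1 of 4 for T and natural killer cells and 4 of 11 for dendritic cells and macrophages. None of these 6 lists had a marker that rose, and the T cell markers Cd3d, Cd3e and Cd3g were not among the tested genes. The part of these shifts in the changes of Ccne1, Cdc6, Rrm2 and Rfc2 was not tested. In RNA from a mixed population, fewer cells of a type and less RNA per cell cannot be told apart.

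The brightness of the arrays moved with the groups too, so that brightness and treatment cannot be fully told apart. A call lost with brightness as a covariate is therefore not shown to come from brightness. With array brightness as a covariate, Rfc2 was still called (log2 change -0.55, adjusted p = 0.0142), while Ccne1 was at 0.89 (adjusted p = 0.0796), Cdc6 at 0.41 (0.139) and Rrm2 at 0.52 (0.0613). The median of the 40 genes was then -0.05, against -0.04 over all genes. The arrays lay on 2 slides with 2 arrays of every group on each. Within the slides the log2 change of Ccne1 was 1.59 and 1.59, of Cdc6 0.47 and 0.95, of Rrm2 0.38 and 0.53 and of Rfc2 -0.40 and -0.75. None passed within a slide, where 2 arrays stood against 2 and at most 0.0930% of all genes were called. With the slide as a block, Rrm2 had an adjusted p of 0.0522, and the other 3 stayed called.

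Single arrays decided part of the count. Leaving out Jak2VF interferon array 4 left 1 call, Rfc2, and Ccne1 then had an adjusted p of 0.0619. Leaving out Jak2VF interferon array 3, or Jak2VF vehicle array 1, 3 or 4, left 2 calls each, and leaving out WT interferon array 2 gave 7. WT arrays do not enter the means compared here, and without that array Cdc6 and Rrm2 stayed at 0.71 and 0.46. What such an omission moves is the estimate of the spread, which all groups share. The share of all genes called can move with each omission too, so these counts alone do not describe the 40 genes. Without the 3 dimmest arrays, which are WT vehicle arrays 1 and 3 and WT interferon array 2, 11 of the 40 genes were called (6 higher, 5 lower), against 32.1% of all genes. Over all alternative settings, the call of Rfc2 held in 26 of 28, of Ccne1 in 23 of 27, of Cdc6 in 19 of 28 and of Rrm2 in 10 of 28. Many of these settings, such as leaving out a WT array, cannot change the log2 change itself. The tallies are therefore not counts of separate tests.

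**Figure D2:**
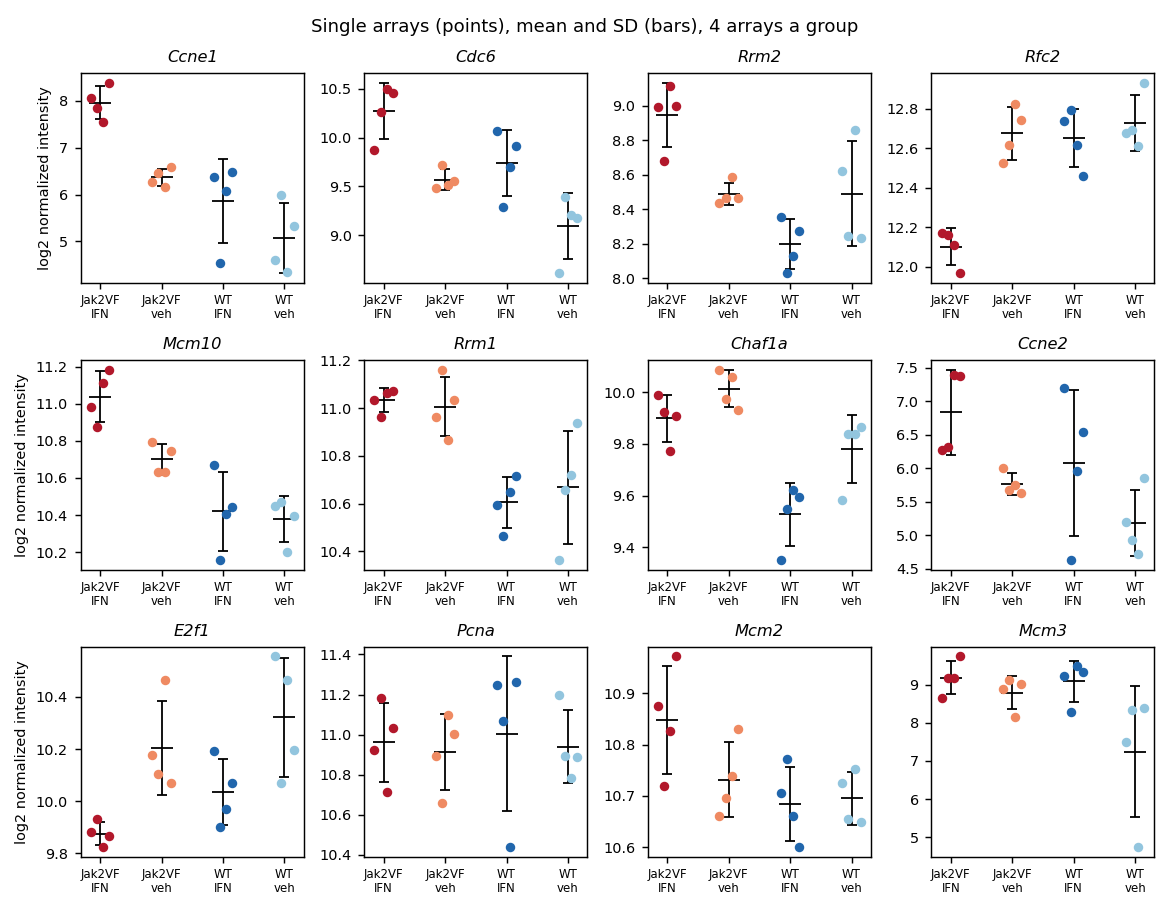
Log2 normalized intensity (vertical axis) on every array for 12 of the genes; points are single arrays, bars the mean and SD of 4, and IFN and veh stand for interferon and vehicle. The Jak2VF interferon arrays of Ccne1 sit between 7.55 and 8.39, above all other arrays, and those of Rfc2 between 11.97 and 12.17, below all others.

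In WT cells, no replication gene was called with interferon. The count was 0 of 40, against 2.27% of all genes (122 higher and 98 lower), and 11 of the 40 (27.5%) had an unadjusted p under 0.05, against 31.8% of all genes. The median log2 change was 0.06, against 0.05 over all genes. Several estimates were nonetheless large and imprecise, and the 95% interval reached 1 for Cdc6, Mcm3, Mcm7, Ccne1 and Ccne2.

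Cdc6 read 10.06, 9.29, 9.70 and 9.91 on the WT interferon arrays, against 8.61, 9.39, 9.21 and 9.17 on the WT vehicle arrays. Interferon array 2 lay within the vehicle range, and the log2 change was 0.65 ± 0.20 (adjusted p = 0.0689), close in size to that in Jak2VF cells. Ccne1 read 6.37, 4.53, 6.08 and 6.47 with interferon, against 4.60, 6.0, 4.35 and 5.32 with vehicle, and the groups overlapped. Its log2 change was 0.80 ± 0.40 (adjusted p = 0.183), and the probe was detected on only 5 of the 8 WT arrays that enter it.

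Mcm3 and Mcm7, subunits of one ring, gave estimates of opposite sign. Mcm3 read 9.22, 8.29, 9.49 and 9.33 with interferon, against 7.49, 8.34, 4.75 and 8.39 with vehicle. The value of 4.75 came from the dimmest array, where the probe was not detected, and the log2 change was 1.84 ± 0.61 (adjusted p = 0.0793). Mcm7 read 9.18, 9.19, 8.98 and 8.86 with interferon, against 10.39, 9.45, 10.35 and 9.31 with vehicle. It was the 1 gene of the 40 (2.50%, against 10.7% of all genes) whose WT groups did not overlap, and its log2 change of -0.82 ± 0.25 was not called (adjusted p = 0.0661). The highest Mcm7 values, 10.39 and 10.35, also came from WT vehicle arrays 1 and 3, which were among the 3 dimmest.

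The other WT values named here were mixed in size. Mcm4, Mcm5 and Mcm6 were at 0.38, 0.51 and 0.38, Mcm2 at -0.01 ± 0.09 and Pcna at 0.06 ± 0.18. The other passing probes of Mcm6 gave larger values than the probe used, at 0.93, 0.57 and 1.01. None of them was called (limma adjusted p over all probes = 0.0709, 0.372 and 0.0522). Ccne2 was at 0.90 ± 0.44, and it read 7.19, 4.63, 5.95 and 6.54 with interferon, against 5.20, 4.93, 4.72 and 5.85 with vehicle. Interferon array 2 again gave the lowest value of its group. E2f1 was at -0.29 ± 0.13 (adjusted p = 0.144), and read 10.19, 9.90, 9.97 and 10.07 with interferon, against 10.56, 10.07, 10.47 and 10.20 with vehicle. Rfc2 was at -0.08 ± 0.12 and Rrm2 at -0.29 ± 0.15.

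The WT count rested on WT interferon array 2, the dimmest of its group. Without it, 11 of the 40 genes were called (8 higher, 3 lower), against 20.7% of all genes. Without WT vehicle array 2 the count was 5, and without WT vehicle array 4 it was 2. These 2 counts are not set against the share of all genes called in the same fits. Among markers of other cells, 4 of 13 erythroid ones rose, with sums of 10755 to 16095 with interferon, against 7221 to 8831 with vehicle, and 3 of 13 granulocyte, 4 of 10 mast cell, basophil and eosinophil and 2 of 6 B and plasma cell markers fell. Of all genes, 2.27% were called in either direction, and no stem cell marker was called. The part of these shifts in the replication genes was not tested.

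The test of whether the interferon change differed between genotypes, Jak2VF minus WT, called none of the 40 genes, against 0.114% of all genes (11 genes). At an unadjusted p under 0.05 there were 2 (5.0%), against 14.1% of all genes. These 2 were Rrm2, with a difference of 0.75 ± 0.21 (adjusted p = 0.138) and Rfc2, with -0.50 ± 0.16 (adjusted p = 0.189). For Ccne1 the difference was 0.80 ± 0.57, with an interval of -0.42 to 2.01, and for Cdc6 it was 0.06 ± 0.28, with an interval of -0.53 to 0.66. The calls in Jak2VF cells are thus not shown to be larger than the changes in WT cells. The interval lay within 1 either way for 34 of 40 genes (85.0%), against 50.2% of all genes. The median standard error of the difference was 0.20 for the 40 genes, against 0.30 over all genes.

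With interferon, 6 of these genes were called between Jak2VF and WT cells. Ccne1, Mcm10, Rrm1, Rrm2 and Chaf1a were higher in Jak2VF cells and Rfc2 was lower. That made 5 higher and 1 lower of 40 (15%), against 17.7% of all genes (7.62% higher and 10.1% lower). The share of called genes was again no larger than the background. The median log2 difference was 0.13, against 0.01 over all genes, and 31 of 40 estimates were positive (77.5%), against 51.0% of all genes. The 2 comparisons with interferon in Jak2VF cells share those 4 arrays, so that their values are given side by side and not as 2 separate lines of evidence.

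Both subunits of ribonucleotide reductase were higher. Rrm1 read 11.03, 10.96, 11.06 and 11.07 on the Jak2VF interferon arrays, against 10.59, 10.46, 10.65 and 10.72 on the WT interferon arrays, a log2 difference of 0.43 ± 0.12 (adjusted p = 0.0249). Rrm2 read 8.99, 8.68, 9.11 and 9.0 in Jak2VF cells, against 8.35, 8.03, 8.13 and 8.28 in WT cells, a difference of 0.75 ± 0.15 (adjusted p = 0.00316). Neither gene had overlapping groups. Tyms and Tk1, which supply thymidine nucleotides, were at 0.05 and 0.03.

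Mcm10 read 10.98, 10.87, 11.11 and 11.18 in Jak2VF cells, against 10.67, 10.16, 10.40 and 10.45 in WT cells. The groups did not overlap, and the log2 difference was 0.62 ± 0.12 (adjusted p = 0.0032). The other 9 helicase genes were not called. They lay between -0.15 (Mcm7) and 0.24 (Mcm5), and the difference for Mcm2 was 0.16 ± 0.09.

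Chaf1a, the large subunit of the factor that places histones on new DNA, read 9.99, 9.92, 9.77 and 9.91 in Jak2VF cells, against 9.35, 9.55, 9.62 and 9.59 in WT cells. Its log2 difference was 0.37 ± 0.10 (adjusted p = 0.0236), without overlap. Chaf1b, its partner subunit, was at 0.08 ± 0.13. Ccne1 read 8.05, 7.85, 7.55 and 8.39 in Jak2VF cells, against 6.37, 4.53, 6.08 and 6.47 in WT cells, a difference of 2.10 ± 0.40 (adjusted p = 0.00255). The lowest WT value came from array 2, where the probe was not detected. The Ccne1 difference was 1.13 with the authors' processed values and 1.65 without WT interferon array 2, and it stayed called in both.

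Rfc2 read 12.17, 12.16, 12.11 and 11.97 in Jak2VF cells, against 12.74, 12.79, 12.61 and 12.46 in WT cells, a log2 difference of -0.55 ± 0.12 (adjusted p = 0.00444). Rfc4, another clamp loader subunit, was at 0.40 ± 0.14 (adjusted p = 0.0674), with groups that did not overlap and Jak2VF arrays above. Fen1 was likewise without overlap at 0.34 ± 0.12 (adjusted p = 0.0548). In all, 8 of 40 genes had groups that did not overlap (7 higher, 1 lower), which is 20%, against 27.9% of all genes. Cdc6, at 0.54 ± 0.20 (adjusted p = 0.0766), and Cdt1, at 0.38 ± 0.13 (adjusted p = 0.0576), were not called.

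Within the slides the log2 difference was 2.50 and 1.69 for Ccne1, 0.64 and 0.85 for Rrm2, 0.47 and 0.39 for Rrm1, 0.51 and 0.72 for Mcm10, 0.51 and 0.23 for Chaf1a and -0.60 and -0.50 for Rfc2. None passed within a slide, where at most 0.723% of all genes were called. With array brightness as a covariate all 6 stayed called. Rrm1 was lost without Jak2VF interferon array 1, 3 or 4 or WT interferon array 2 (adjusted p = 0.0511 to 0.0688), and Chaf1a without Jak2VF interferon array 1, 2 or 4 or WT interferon array 1 (0.0527 to 0.0658). Chaf1a was also lost with all arrays kept when only the groups compared were fitted (0.0514). Rfc2 was at -0.42 with median centring (0.0688).

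Markers of cell types moved here as well. Erythroid markers were higher in 7 of 13, against 7.62% of all genes higher. Markers were lower in 6 of 13 for stem cells, 7 of 10 for megakaryocytes, 4 of 11 for dendritic cells and macrophages, 3 of 10 for mast cells, basophils and eosinophils, 2 of 13 for granulocytes and monocytes, 2 of 6 for B and plasma cells and 1 of 4 for T and natural killer cells, against 10.1% of all genes lower. The summed stem cell intensity was 4257 to 7213 in Jak2VF cells, against 15812 to 16052 in WT cells. The part of these markers in the differences of Rrm1, Rrm2, Mcm10, Chaf1a, Ccne1 and Rfc2 was not tested. Each group sat at fixed positions on the slides, so that position and group cannot be told apart.

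With vehicle, no replication gene passed between Jak2VF and WT cells. The count was 0 of 40, against 0.424% of all genes (41 genes), while 11 of 40 (27.5%) had an unadjusted p under 0.05, against 20.8% of all genes. The estimates leaned to one side. The median was 0.18, against 0.04 over all genes, and 32 of 40 were positive (80.0%), against 54.7% of all genes.

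The largest estimates were those of Mcm3, at 1.55 ± 0.61 (adjusted p = 0.191), and Ccne1, at 1.30 ± 0.40 (adjusted p = 0.14). The lowest WT vehicle value of Mcm3 came from the dimmest array, where its probe was not detected. The Ccne1 probe was not detected on every WT vehicle array. Ccne1 read 6.26, 6.46, 6.17 and 6.58 on the Jak2VF vehicle arrays, against 4.60, 6.0, 4.35 and 5.32 on the WT vehicle arrays, without overlap. Mcm7 was at -0.83 ± 0.25 (adjusted p = 0.137), the 1 gene whose Jak2VF arrays all lay below the WT arrays. Its highest WT vehicle values came from arrays among the dimmest. Cdc6, Mcm10, Pole and Chaf1a also had groups that did not overlap, with Jak2VF above, at 0.47, 0.32, 0.40 and 0.23. That made 6 of 40 (15%), against 9.80% of all genes. Rrm2 was at -0.00 ± 0.15, Rfc2 at -0.05 ± 0.12 and Rrm1 at 0.34 ± 0.12 (adjusted p = 0.167). Of 13 erythroid markers 3 were higher in Jak2VF cells, against 0.424% of all genes called in either direction. In the other 7 marker lists none was called.

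**Figure D3:**
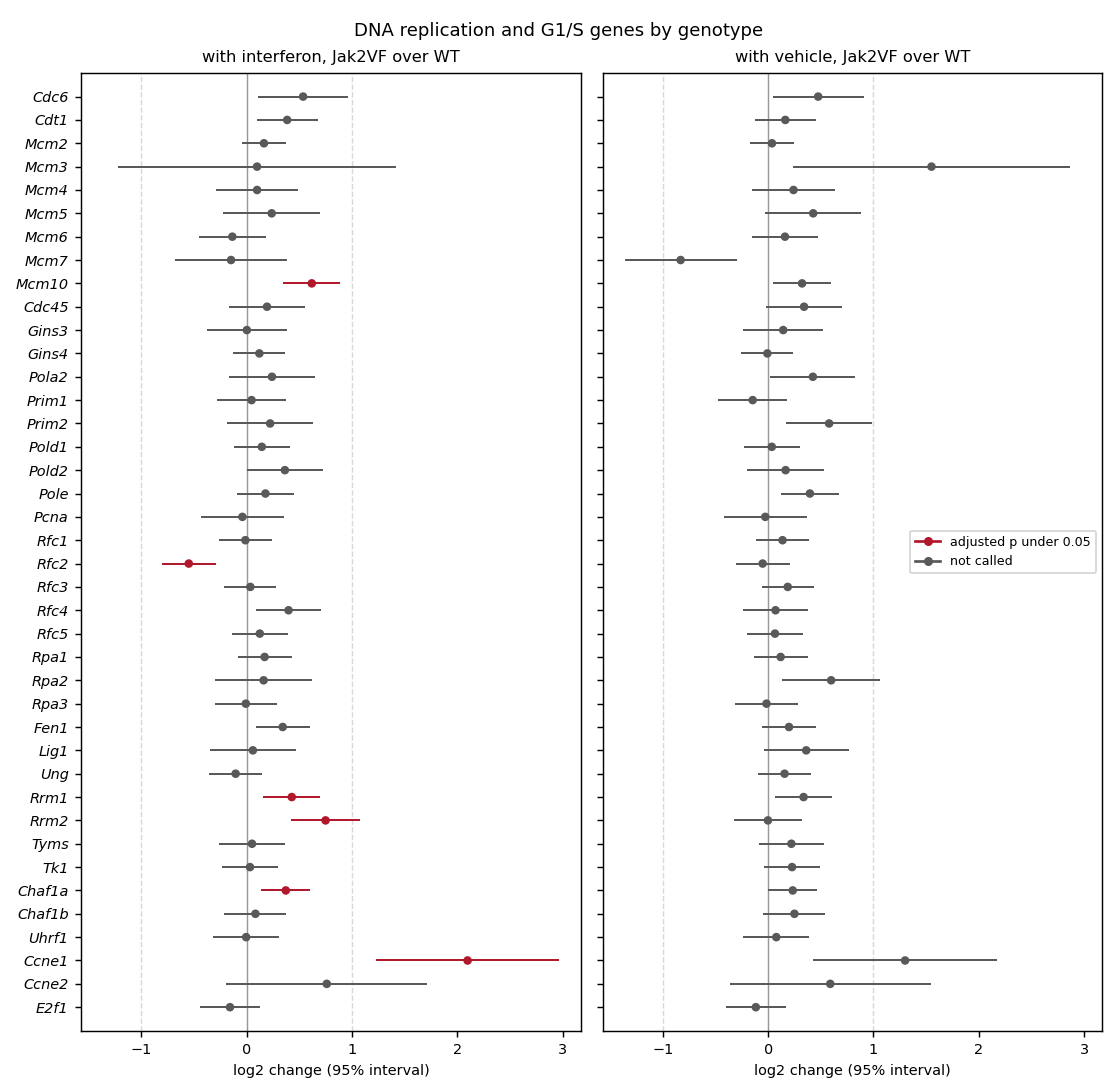
Log2 difference of Jak2VF over WT cells (horizontal axis) for each of the 40 tested genes, with interferon on the left and vehicle on the right; points are limma estimates, lines their 95% intervals, and red marks an adjusted p under 0.05. With interferon 5 genes are red to the right of 0 and Rfc2 to the left, and with vehicle none is red although 32 points lie right of 0.

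The mean over the 40 genes was read beside the brightness of the arrays. Per array it was 10.38 to 10.52 with interferon and 10.34 to 10.38 with vehicle in Jak2VF cells, and 10.06 to 10.37 with interferon and 9.98 to 10.23 with vehicle in WT cells. All Jak2VF interferon arrays lay above all Jak2VF vehicle arrays, and the WT groups overlapped. The 3 dimmest arrays gave the 3 lowest means, 9.98 and 10.07 for WT vehicle arrays 3 and 1 and 10.06 for WT interferon array 2. Over the 37 genes detected on all arrays, the Jak2VF means were 10.59 to 10.68 with interferon and 10.60 to 10.65 with vehicle, and these overlapped. The WT means were 10.40 to 10.59 with interferon and 10.42 to 10.54 with vehicle. All Jak2VF arrays lay above all WT arrays, with the closest values at 10.594 and 10.590. This difference was not tested. With array brightness as a covariate, the median log2 difference of Jak2VF over WT cells was 0.09 with interferon and 0.09 with vehicle. These medians are not set against those over all genes in the same fits, so they do not set the 40 genes apart.

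**Figure D4:**
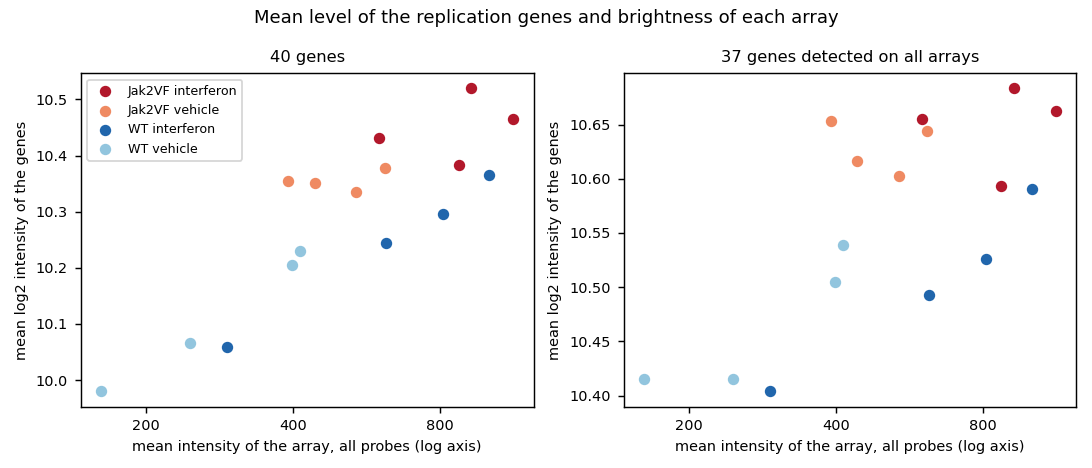
Mean log2 normalized intensity of the replication genes (vertical axis) against the mean intensity of the array before normalization (horizontal, log axis), for 40 genes on the left and the 37 detected on all arrays on the right; each point is an array, coloured by group. The 3 dimmest arrays have the 3 lowest means on the left, and on the right the Jak2VF interferon and Jak2VF vehicle points overlap in height.

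Other genes of the same pathways were read from 6 lists chosen by function, with 120 tested genes in all. With interferon in Jak2VF cells 15 of the 120 were called (12.5%), against 16% of all genes. With array brightness as a covariate, 6 of these 15 stayed called, namely Orc5, Mthfd1, Ppat, Gart, Ccnd1 and E2f4, and 9 did not. These counts are not set against the share of all genes called in that fit. Brightness moved with treatment, so that a lost call cannot be assigned to either. Of 16 tested genes of origin licensing and firing 4 rose and none fell, against 6.51% of all genes higher, and with brightness as a covariate only Orc5 of the 4 stayed called. They were Orc5 (log2 change 0.94, adjusted p = 0.00111) and Orc2 (0.84, 0.034) of the origin recognition complex, Wdhd1 (0.69, 0.04), which links the helicase to polymerase alpha, and Dbf4 (0.52, 0.0177), the activator of the Cdc7 kinase. Orc5 read 9.55, 9.77, 9.91 and 9.93 with interferon, against 8.74, 9.02, 8.76 and 8.88 with vehicle, without overlap. The Orc2 probe was detected on 4 of 4 arrays with interferon and on 1 of 4 with vehicle, and its call was lost in 12 of 27 alternative settings. The call of Dbf4 was lost without Jak2VF interferon array 3 or 4.

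The 23 tested genes of nucleotide supply held 5 that rose and none that fell, against 6.51% of all genes higher. The calls of Ctps and Slc29a1 were lost with brightness as a covariate. Mthfd1, a folate enzyme of purine and thymidylate synthesis, rose by 1.36 (adjusted p = 0.000801), with 11.15, 11.37, 11.67 and 11.82 with interferon against 10.33, 10.19, 9.80 and 10.24 with vehicle. Slc29a1, a nucleoside transporter, rose by 1.44 (0.0334), and Ppat and Gart, of purine synthesis, and Ctps, which makes CTP, by 0.75, 0.44 and 0.53. The median log2 change of the list was 0.30, against -0.00 over all genes. The calls of Slc29a1 and, among origin genes, of Wdhd1 held in 16 of 27 and 14 of 28 alternative settings.

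Fork and checkpoint genes held 1 call of 21 tested, the small polymerase delta subunit Pold4, which fell by 0.87 on the log2 scale (adjusted p = 0.0119), against 16% of all genes called. This call was lost with brightness as a covariate. None of 11 tested chromatin and methylation genes was called. Of 28 tested genes of G1/S control, E2f4, an E2F factor known mainly as a repressor, rose by 0.56 (adjusted p = 0.0116). Cyclin D1 (Ccnd1) fell by 1.25 (0.00129) and the cyclin-dependent kinase inhibitor Cdkn1c (p57), which is known to keep stem cells at rest, by 2.03 (0.0136). Cdkn1c read 6.94, 6.13, 6.25 and 5.05 with interferon, against 8.13, 7.58, 9.08 and 7.72 with vehicle, without overlap. Its call was lost without Jak2VF interferon array 4 and with brightness as a covariate, and over the alternative settings its log2 change ran between -2.75 and -1.11.

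Mitotic genes, which follow S phase, held 1 of 21 that rose, the centromeric histone Cenpa (0.49, adjusted p = 0.0378), and 1 that fell, the kinesin Kif23 (-0.41, 0.0351), against 6.51% of all genes higher and 9.46% lower. Each of these calls was lost in 9 of 28 alternative settings, brightness as a covariate among them. In WT cells with interferon, the 6 lists held 1 call of 120 (0.833%), against 2.27% of all genes. It was the ubiquitin ligase subunit Fbxw7, known for degrading cyclin E, which fell by 0.68 (adjusted p = 0.0229). Fbxw7 read 7.74, 7.71, 7.67 and 7.84 with interferon, against 8.18, 8.20, 8.56 and 8.73 with vehicle. Its call was lost in 7 of 28 alternative settings, which include brightness as a covariate and leaving out WT interferon array 1, 3 or 4.

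With interferon, Jak2VF cells were higher than WT cells in 8 of 23 nucleotide supply genes, against 7.62% of all genes higher, and lower in none. Slc29a1, Mthfd1 and Mthfd2 differed most, by 1.60, 1.51 and 0.99 (adjusted p = 0.0176, 0.000275 and 0.0434). Of 16 origin genes 4 were higher, namely Orc1 (1.09), Orc2 (0.78), Orc5 (0.61) and Dbf4 (0.48), and none was lower. Pold4 was lower (-1.05), and Hat1, which acetylates new histones, was higher (0.41). In G1/S control E2f4 was higher (0.83), and Ccnd1 (-1.43), the inhibitor Cdkn2d (-1.03) and Ccnd3 (-0.57) were lower. The mitotic kinases Plk1 (0.45) and Aurka (0.36) were higher, and none of the mitotic list was lower. That made 20 of the 120 genes called (16.7%), against 17.7% of all genes. The calls of Orc2, Mthfd2, Aurka and Ccnd3 held in 9 of 27, 11 of 27, 13 of 28 and 17 of 28 alternative settings, those of Orc1 and Dbf4 in 20 of 27 and 20 of 28, and those of the other 14 genes in 23 to 26. With brightness as a covariate the calls of Orc2 and Mthfd2 were lost and 18 of the 20 held. With vehicle, and in the test of the difference between genotypes, no gene of the 6 lists was called, and Adsl (log2 difference 0.73, adjusted p = 0.115, with vehicle) and Ccnd1 (difference of changes -1.06, adjusted p = 0.132) had the smallest p. The erythroid and stem cell markers described above moved in the same comparisons as these lists, and their part was not tested.

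**Figure D5:**
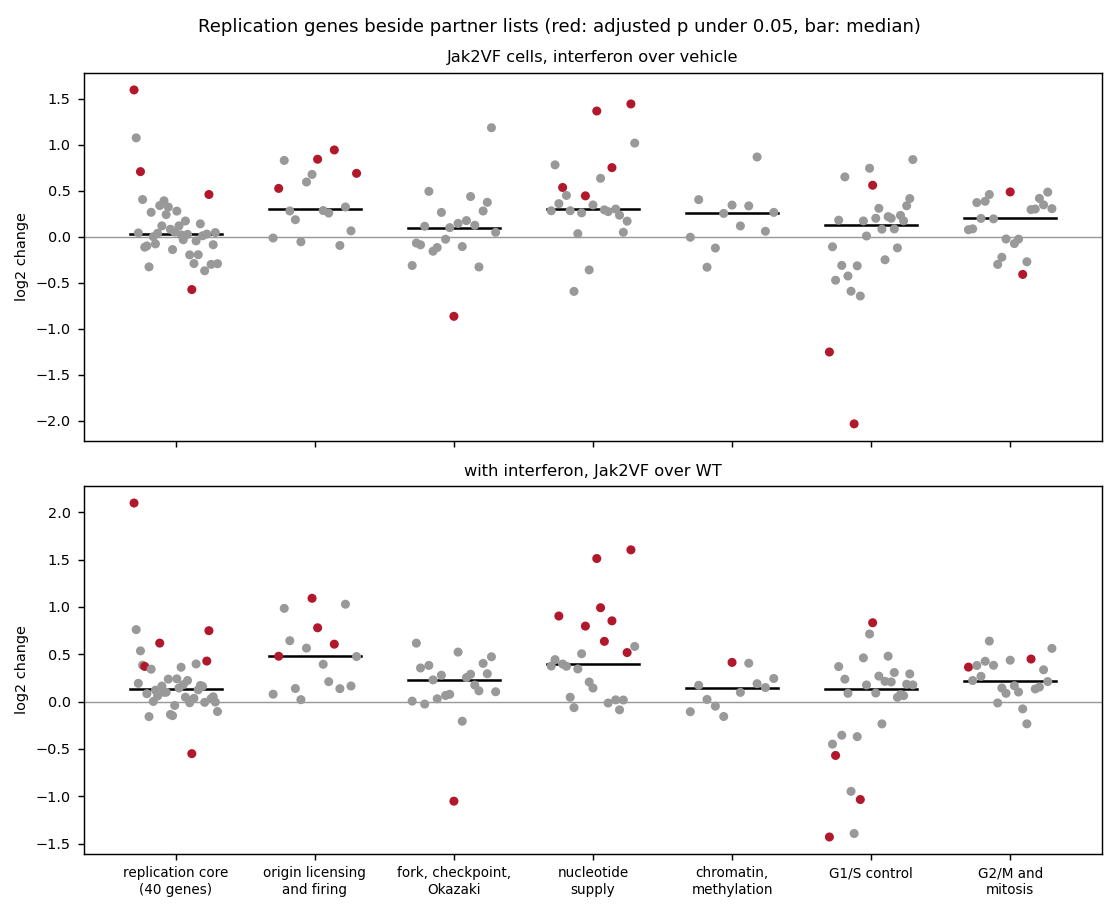
Log2 change (vertical axis) of the 40 replication genes and of the 6 lists of partner genes, for interferon over vehicle in Jak2VF cells above and Jak2VF over WT cells with interferon below; each point is a gene, red marks an adjusted p under 0.05, and bars are medians. The nucleotide supply list holds 5 red points above and 8 below, all higher than 0, and Cdkn1c is the lowest point above at -2.03.

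The counts with and without the E2F-type letters are given as a description. With interferon in Jak2VF cells, against 6.51% of all genes higher, 1 of 11 tested genes with a match rose, Cdc6, and the median log2 change was 0.08. Of 23 with a promoter and no match, 2 rose, Rrm2 and Ccne1, and the median was 0.02. Between genotypes with interferon, 0 of the 11 and 5 of the 23 were higher in Jak2VF cells, with medians of 0.06 and 0.16, against 7.62% of all genes higher. The difference between genes with and without a match was not tested. Rfc2 had no promoter entry.

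Some genes were measured by more than one probe. Of the 40 genes, 13 had other passing probes, 23 in all. The sign of the probe used was shared by 17 of the 23 with interferon in Jak2VF cells and 13 with interferon in WT cells. Between genotypes it was shared by 15 with interferon and 16 with vehicle, and for the difference of the changes by 13. The other probes of Cdc6 were at 0.57 and 0.47, against 0.71 for the probe used, and that of Rrm2 was at 0.20, against 0.46. With the mean of passing probes Cdc6 was at 0.58 (adjusted p = 0.061) and Rrm2 at 0.33 (0.245). Between genotypes with interferon, the other probe of Rrm2 was at 0.73 (adjusted p over all probes = 0.051) and that of Mcm10 at 0.98 (0.285). The mean over probes of Mcm10 was 0.80 (0.099). None of the 23 was called itself.

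Among 9440 genes outside these lists, those whose level followed the mean of the 40 genes most closely over the 16 arrays were Hspbap1 (Pearson r = 0.960), Xpnpep1 (0.954), Aco1 (0.942), Rcc2 (0.941) and Rars (0.939). Lrwd1, Cenpi, Dpp3, Prpf31 and LOC381801 came next, at 0.937 to 0.931. Rcc2 is a regulator of mitosis, Lrwd1 binds the origin recognition complex and Cenpi is a kinetochore protein. The other genes named, with Hspbap1, Xpnpep1 and Aco1 at the top, are not described by role. Hspbap1 was detected on 12 of the 16 arrays. The arrays share their brightness and their groups, so that these values only describe likeness.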

How the data were processed

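The deposited table lists, per the file headers, 25697 probes with their average signal on the 16 arrays, which is an intensity on a linear scale, and with a detection p-value beside each signal. The values show no normalization between arrays. A second table deposited by the authors holds intensity values that, judged from their ranks and medians, were quantile normalized on the linear scale without background subtraction, and it served as an alternative. Per the labels, RNA was extracted with the PicoPure kit and amplified with the TotalPrep kit. What scanner software was used, and whether it subtracted background, is not given in the sources used here.

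Intensities were background corrected (normexp inferred from detection p-values, offset 16), quantile normalized and logged to base 2 by neqc of limma 3.58.1 (R 4.3.3). Probes with a detection p-value under 0.05 on at least 4 arrays were kept (13364), and the brightest one stood for each of 9680 genes. Older symbols were updated through RefSeq (GRCm38.p6), as for 5 of the 43 genes, Cdt1, Cdc45, Gins3, Gins4 and Rfc1. One linear model of 4 group means (lmFit, then eBayes) took in all arrays, with 12 residual and 2.73 prior degrees of freedom, and the fit was tested on simulated data. Benjamini-Hochberg adjustment ran over all 9680 genes for each comparison separately. An adjusted p under 0.05 counted as a call. Adjusted p-values and 95% intervals come from limma. The number of arrays limits the precision.

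Labels placed the arrays in groups, and array numbers only count the arrays of a group. The genes, the lists of partner and marker genes, the tests and the settings that use array brightness were chosen with earlier results of these data known. Values are given for every called gene, up to 3 for each role and comparison, for Pcna, Mcm2, Ccne1, Ccne2 and E2f1 always, and from each partner list for up to 3 called genes each way or the one with the smallest p. The remaining genes are given by their values or their range. Singled out after their values were seen were Cdt1, Mcm3, Mcm7, Rfc4 and Fen1. Alternatives were other normalizations, filters and probe choices, slide blocking and each slide alone, fewer groups in the fit, brightness as a covariate, and leaving out arrays. Counts of the partner and marker lists under these settings were added after the data were seen. A planned search of the proteins for the PCNA-binding motif was not run.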

Additional observations from a re-analysis of the deposited data

Results flagged for a closer look

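Within groups of 4 arrays, 8 of 164 sets of values, those of the 40 tested genes and of array brightness in each group, had 1 array far from the other 3, by Dixon's ratio at its 95% critical value. Chance gives about 1 in 20 groups, and 8 of 164 is close to that. On the log2 scale, Jak2VF interferon array 1 was low for Cdc45 at 9.18, against 9.42 to 9.47 on the others, and Jak2VF interferon array 3 was high for Lig1 at 11.87, against 11.48 to 11.52. WT interferon array 1 was low for Tk1 at 10.53, against 10.76 to 10.81, and WT interferon array 2 was low for Chaf1b at 10.60, against 10.87 to 10.92. WT vehicle array 1 was low for Rfc3 at 8.72, against 8.87 to 8.89, and for Chaf1a at 9.58, against 9.84 to 9.86. WT vehicle array 2 was low for Pold1 at 11.53, against 11.61 to 11.63, and WT vehicle array 4 was low for Rfc4 at 10.97, against 11.19 to 11.23. Of these genes only Chaf1a was called in a comparison, that of Jak2VF with WT cells with interferon, which does not use the array in question for its means.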

How the results depend on the processing

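No paired analysis was possible because the labels carry no replicate numbers. No called gene changed direction in any setting. Settings that leave the log2 change as it was, such as omitting an array outside the comparison, could not change its direction. With interferon in Jak2VF cells, 4 of the 40 genes were called as reported, 7 with the authors' processed values, 8 of 37 with genes detected on all arrays (30.2% of all genes), 2 with the mean of passing probes, 0 within slide 1 and 0 within slide 2, 7 with only the groups compared, 11 when the 3 dimmest arrays were left out and 1 with brightness as a covariate. Leaving out 1 array gave 1 to 7. With interferon in WT cells, 0 were called as reported, 3 without background correction, 3 with the authors' values and 2 with genes detected on all arrays, and leaving out 1 array gave 0 to 11. The median log2 change there was 0.06 as reported, -0.055 with median centring, which moved the median of all genes to -0.31, and -0.071 with brightness as a covariate. Between Jak2VF and WT cells with interferon, 6 were called as reported, 10 without background correction, 10 with the authors' values and 0 within either slide, and leaving out 1 array gave 4 to 8. With vehicle, leaving out 1 array gave 0 to 2 calls, 2 without WT vehicle array 2 and 1 without array 4. The difference between genotypes held 0 calls in every setting, and its median was -0.03 as reported and 0.094 with median centring, where the median of all genes was 0.17. The share of all genes called moved between settings too, as from 16% to 30.2% with genes detected on all arrays, for interferon in Jak2VF cells. A shift in a count of the 40 genes is therefore not by itself a result about them. The cause of the shifts in counts and medians was not tested. Of 1279 values of single called genes under alternatives, 1016 stayed past the threshold and 263 did not. Mcm3, Ccne2 and Ccne1, not detected on some arrays, had the largest standard errors of the 40 genes (0.61, 0.44 and 0.40).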
